A study of Homo sapiens with 6 samples.

Results

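The SLC25 family is the largest group of transporters of the inner mitochondrial membrane. It was taken here as every probe set whose platform annotation gave exactly 1 gene symbol and whose symbol started with SLC25A. This gave 117 probe sets of 46 genes, out of 18132 genes with values on the arrays. Of these 46 genes, 34 had between 2 and 6 probe sets, which were averaged, and 12 rested on 1 probe set. SLC25A6, an ADP/ATP carrier, was not analysed here, and family members under other symbols were not taken.

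The inner mitochondrial membrane is closed to most solutes, and SLC25 carriers let amino acids, nucleotides, phosphate, metals, cofactors and carboxylic acids cross it, mostly by exchanging one substrate for another. Each carrier is a bundle of membrane helices built from repeats of the same fold, and related carriers with like substrates often differ in the tissues that express them. The aspartate/glutamate carriers form part of the malate-aspartate shuttle, which moves reducing equivalents from cytosolic NADH into mitochondria. In proliferating cells these carriers link mitochondrial metabolism to the synthesis of nucleotides, heme, lipids and amino acids.

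RNA came from U87, an established human glioma cell line, and 6 Affymetrix arrays were hybridised with biotinylated cRNA made from it. In the knockdown group of 3 arrays, U87 cells had received a lentivirus carrying a short hairpin RNA against PCGF1, and in the control group of 3 arrays U87 cells had received a negative control (NC) lentivirus; both were kept in DMEM with fetal bovine serum. PCGF1 is a Polycomb RING finger protein of the repressive chromatin complex PRC1.1, and the series compares knockdown with control cells. The labels number the arrays of a group as biological replicates but name no separate cultures, and the p-values therefore rest on a spread among arrays that may be partly technical; the marks T0 on every knockdown array and T1 on every control array are unexplained and cannot be told apart from the knockdown. The hairpin sequence, and whether the cells were a pool or a clone, are not given in the sources used here.

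Values are log2 signals of a probe set relative to its median over the 6 arrays, and give neither how strongly a carrier was expressed nor whether it was above background. For the same reason the labelled cell type could not be checked by the level of its markers. PCGF1 itself was at -0.27, -0.13 and -0.19 in knockdown replicates 1 to 3 and at 0.13, 0.27 and 0.29 in the controls, or 74.3% of the control level (95% interval 67.8 to 81.5%, limma adjusted p = 0.00410; two-sided exact permutation test p = 0.1, the smallest that 3 against 3 arrays allow). Of 25 measured markers of glial, neuronal, leukocyte, endothelial, epithelial and mesenchymal cells, 3 rose (MAP2, FN1 and PDGFRB) and 0 fell, beside 11.0% of all genes called. The summed values of the 4 mesenchymal markers lay between 0.17 and 0.36 in knockdown and between -0.37 and -0.22 in control arrays, and those of the 4 neuronal markers between 0.05 and 0.19 and between -0.65 and -0.08. Within these lists VIM (-0.03), CD44 (-0.08) and SYP (-0.12) did not pass and had the opposite sign. The sums of the glial, leukocyte, endothelial and epithelial markers overlapped between the groups. For ACTB, the 3' control probe set less the 5' one gave between 0.01 and 0.11 in knockdown and between -0.07 and 0.04 in control arrays. For GAPDH it gave between -0.0077 and 0.04 in knockdown and between -0.01 and 0.0097 in control arrays. The ranges of the groups overlapped for both genes. The part of these differences in the results below was not tested.

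As a family the carriers did not move one way. SLC25A13, the aspartate/glutamate carrier also called citrin, fell to 55.9% of its control level, and the folate carrier SLC25A32 fell to 88.4%. The glutamate carrier SLC25A22, the iron carrier SLC25A37 and the 2-oxoglutarate/malate carrier SLC25A11 rose to between 112.5% and 113.1% of control. The other 41 carriers did not pass the test, limma's moderated test with Benjamini-Hochberg adjustment over all genes at an adjusted p under 0.05.

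These 5 of 46 carriers, 3 higher and 2 lower, are 10.9% of the family, against a background of 11.0% of all 18132 genes called in either direction (6.36% higher and 4.63% lower). The split by direction was not stable. It was 0 higher and 3 lower when the most variable probe set stood for its gene, where 8.13% of all genes were called. Without control replicate 1 it was likewise 0 and 3, where 6.18% of all genes were called. The most variable probe set was picked by its spread over the arrays of both groups together. A difference between the groups widens that spread, so the choice is not independent of the difference tested. The median log2 fold change of the carriers was -0.0065, beside -0.0081 for all genes, and their median size of change was 0.07, as it was for all genes. The knockdown and control arrays did not overlap for 15 carriers, 32.6%, where 32.7% of all genes had groups apart. Both shares of the family were near the background. Signs were mixed, with 24 carriers below 0 and 22 above.

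**Figure D1:**
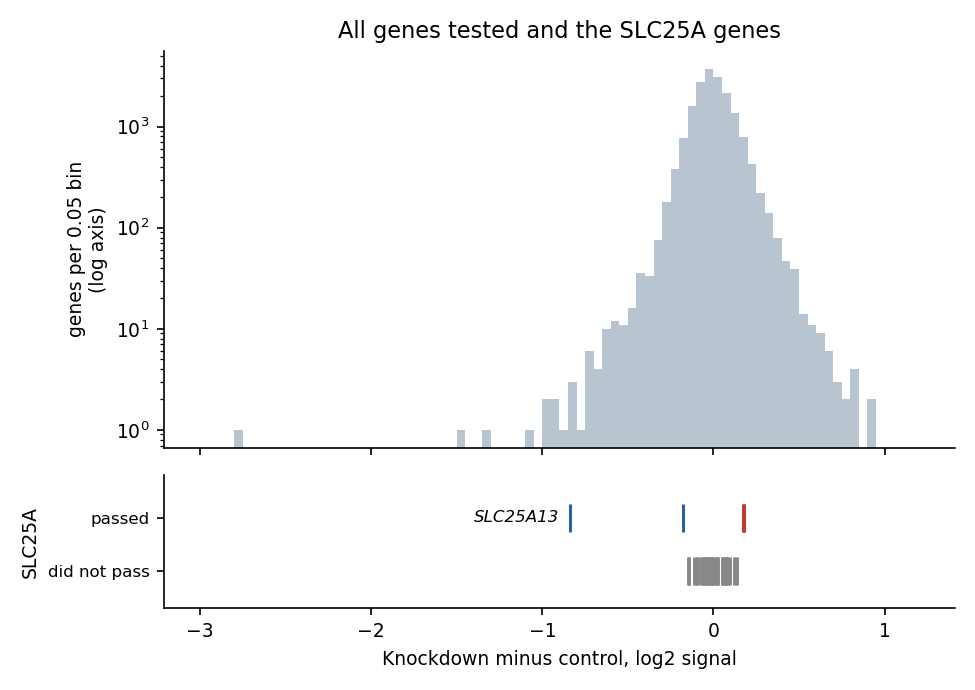
Upper panel, number of genes (log axis) by log2 signal in knockdown minus control arrays, in bins of 0.05, for all 18132 genes. Lower panel, the 46 SLC25A genes as ticks, blue for lower and red for higher at an adjusted p under 0.05; apart from SLC25A13 at -0.84 they lie between -0.18 and 0.18, in the body of the distribution.

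SLC25A13 stood apart from the family. Its log2 fold change of -0.84 was 4.72 times the size of the next carrier's, and it was number 10 of 840 fallen genes by size. For 36 of the 41 that did not pass, the 95% interval of the difference stayed within a change of 1.2-fold either way. The exceptions were SLC25A2, SLC25A10, SLC25A18, SLC25A31 and SLC25A34, for which wider changes remain possible, and 4 of these rest on 1 probe set. These intervals are of the mean of a gene's probe sets and leave out disagreement among them. Among the 36, SLC25A12 had a probe set at -0.29 and SLC25A23 had 1 at 0.30, both beyond 1.2-fold, so wider changes remain possible there too. In others of the 36 the 95% interval of a single probe set passed 1.2-fold. Examples on the log2 scale are SLC25A44 (down to -0.50), SLC25A26 (down to -0.46) and SLC25A35 (up to 0.40). Without any 1 array, SLC25A13 was called each time, but the count of called carriers fell to between 1 and 4, while 5.40% to 7.73% of all genes were called.

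**Figure D2:**
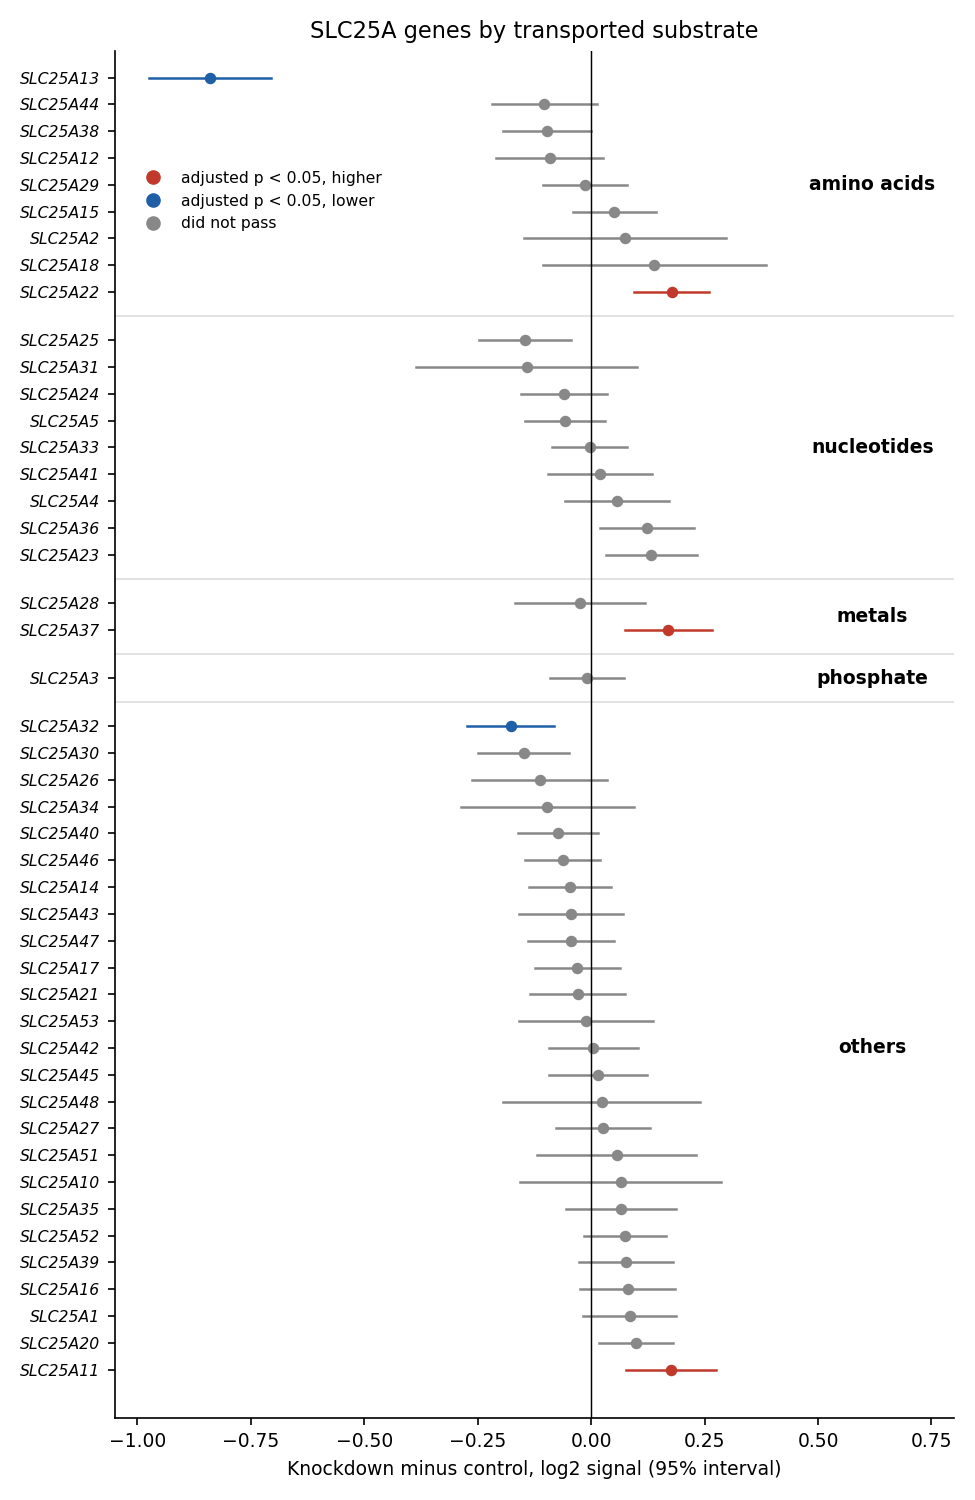
Log2 signal in knockdown minus control arrays for each of the 46 SLC25A genes, grouped by transported substrate, with limma's 95% interval (3 arrays per group). SLC25A13, at -0.84, is the only point beyond -0.2 or 0.2; red and blue points passed an adjusted p under 0.05 and grey points did not.

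Among the 9 amino acid carriers 1 was called higher and 1 lower, where 11.0% of all genes were called. SLC25A13 brings glutamate and a proton into mitochondria in exchange for aspartate and is regulated by cytosolic calcium; aspartate leaving the mitochondria feeds nucleotide and protein synthesis. Its signal on the log2 scale stood at -0.41, -0.48 and -0.35 in knockdown replicates 1 to 3 and 0.49, 0.47 and 0.32 in control replicates 1 to 3. All 3 knockdown arrays lay below all 3 control arrays, with a gap wider than the range of either group. The means were -0.41 ± 0.07 and 0.43 ± 0.09 (SD, n = 3 each), and the log2 fold change was -0.84 ± 0.06 (SE, adjusted p = 0.000295), a 1.79-fold lower level (95% interval 50.9 to 61.4% of control).

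The 3 probe sets of SLC25A13 gave nearly the same result. Fitted singly over all 49293 probe sets, of which 7.24% were called, their log2 fold changes were -0.86, -0.86 and -0.79, each called (adjusted p = 0.00235, 0.00235 and 0.000682). On none of the 3 probe sets did a knockdown array reach a control array. Leaving out any 1 array kept the value between -0.89 and -0.81 (adjusted p from 0.00128 to 0.00302).

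SLC25A12, called aralar, is the closest relative of SLC25A13 and does the same exchange; it is the form known from brain, heart and muscle, whereas citrin is known from liver. SLC25A12 was at -0.14, -0.06 and 0.03 in knockdown and at 0.01, 0.08 and 0.02 in control arrays. The groups overlapped, because knockdown replicate 3 lay above 2 of the control arrays, and the log2 fold change of -0.09 ± 0.05 (SE) did not pass (adjusted p = 0.303). Its probe sets disagreed in size: 1 of the 3 was at -0.29 and was called (adjusted p = 0.0325), with knockdown arrays at -0.29, -0.20 and -0.08 and control arrays at 0.12, 0.08 and 0.10, while the others were at -0.0074 and 0.03. With that probe set, its most variable, standing for the gene, SLC25A12 was called lower (adjusted p = 0.0416). That choice leans towards probe sets with a difference between the groups, so this call is not an independent check.

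**Figure D3:**
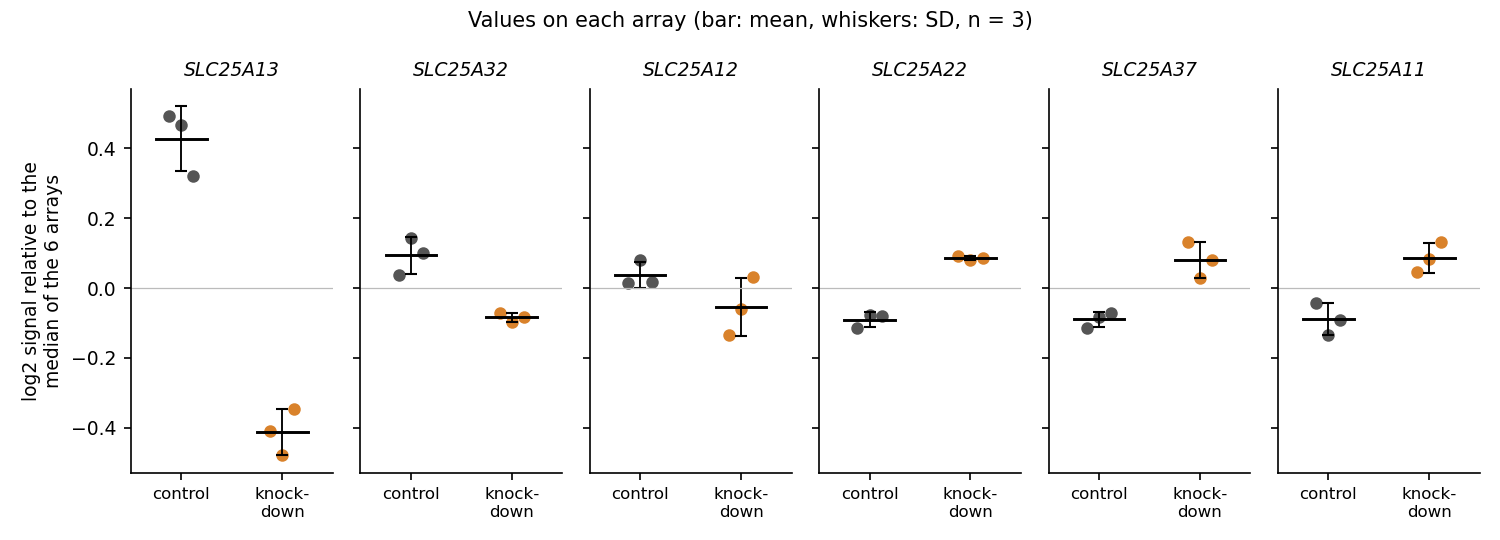
Log2 signal relative to the median of the 6 arrays (y axis, shared) for 6 carriers, with 1 point per array, the group mean as a bar and whiskers of 1 SD (n = 3). SLC25A13 separates by 0.84 between control and knockdown, SLC25A12 overlaps, and the 4 other called carriers separate by 0.17 to 0.18.

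The difference between both aspartate/glutamate carriers was the widest of 15 pairs of related carriers compared within each array. SLC25A12 minus SLC25A13 was 0.36 ± 0.07 in knockdown and -0.39 ± 0.09 in control arrays (SD, n = 3 each), a difference of changes of 0.75. The exact permutation test gave p = 0.1, the smallest possible, and 0.188 after adjustment over the 15 pairs, so no pair could pass. In 8 of the 15 pairs the knockdown and control arrays did not overlap; 32.7% of single genes had groups apart, and no such share was computed for pairs of genes at large.

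The promoter windows of this pair are shown because this pair had the widest difference of changes. They run from 250 bases before to 50 bases after the annotated start, 5′ to 3′ on the gene's strand, from RefSeq on GRCh38.p14. Capitals mark the motifs searched on both strands, CACGTG (the E-box bound by MYC and its relatives) and GGGCGG (the GC box bound by SP factors), the latter as CCGCCC where it lies on the other strand. The first is chr7:96322049-96322348 on the minus strand and the second chr2:171894195-171894494 on the minus strand.
SLC25A13: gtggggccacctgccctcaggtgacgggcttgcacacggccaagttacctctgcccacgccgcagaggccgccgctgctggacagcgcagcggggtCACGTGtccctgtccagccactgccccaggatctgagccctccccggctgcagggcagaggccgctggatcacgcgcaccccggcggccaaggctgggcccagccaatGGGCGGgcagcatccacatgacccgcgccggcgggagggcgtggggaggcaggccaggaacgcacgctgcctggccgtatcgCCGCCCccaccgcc
SLC25A12: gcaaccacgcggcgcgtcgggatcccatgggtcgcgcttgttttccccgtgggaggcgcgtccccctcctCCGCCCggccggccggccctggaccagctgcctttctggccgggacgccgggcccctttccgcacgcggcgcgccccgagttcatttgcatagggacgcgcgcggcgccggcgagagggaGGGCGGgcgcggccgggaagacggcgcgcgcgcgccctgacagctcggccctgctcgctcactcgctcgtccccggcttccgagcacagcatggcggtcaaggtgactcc
The SLC25A13 window holds 1 E-box and 2 GC boxes, and the SLC25A12 window holds 0 E-boxes and 2 GC boxes. The observed to expected ratio of CpG was 0.659 in the former and 1.11 in the latter.

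SLC25A22, the main mitochondrial glutamate carrier, rose. It was at 0.09, 0.08 and 0.09 in knockdown and at -0.12, -0.08 and -0.08 in control arrays, with no overlap and very little spread among the knockdown arrays. The log2 fold change was 0.18 ± 0.04 (SE, adjusted p = 0.0197), or 113.1% of control (95% interval 106.8 to 119.8%), with both probe sets above 0, at 0.16 and 0.19. The call was kept only without knockdown replicate 2 (adjusted p = 0.0493) when 1 array was left out, and was otherwise lost (adjusted p = 0.0586 to 0.0653). SLC25A18, its relative, was at -0.09, 0.09 and 0.34 in knockdown and at -0.11, -0.09 and 0.11 in control arrays, and the wide spread of its 1 probe set left 0.14 ± 0.11 (SE, adjusted p = 0.459) undecided.

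The other amino acid carriers did not pass. SLC25A44, which carries branched-chain amino acids, was at 0.04, -0.11 and -0.07 in knockdown and at 0.06, 0.01 and 0.10 in control arrays (-0.10 ± 0.05, SE, adjusted p = 0.237), with probe sets from -0.25 to 0.06. SLC25A38, the glycine carrier that supplies heme synthesis, had all 3 knockdown arrays below all 3 controls, yet its difference of -0.10 ± 0.04 (SE) did not pass (adjusted p = 0.189). It rests on 1 probe set. SLC25A15, which exchanges ornithine for citrulline in the urea cycle, was at 0.05, SLC25A29, a carrier of basic amino acids, at -0.01, and SLC25A2, a relative of SLC25A15, at 0.07, where knockdown replicate 1 alone reached 0.30. All 3 SLC25A15 probe sets are of the _s_at type, which by Affymetrix naming can match several transcripts.

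None of the 9 nucleotide carriers passed limma's test after adjustment. At an unadjusted p under 0.05 there were 3, SLC25A23 and SLC25A36 above 0 and SLC25A25 below, beside 26.6% of all genes. The ADP/ATP carriers export ATP to the cytosol in exchange for ADP. SLC25A4, the form of heart and muscle, was at 0.06 ± 0.05 (SE, adjusted p = 0.523) and SLC25A5, the form of proliferating cells, at -0.06 ± 0.04 (SE, adjusted p = 0.383). For SLC25A5 the arrays were at -0.04, -0.0088 and -0.03 in knockdown and at 0.0088, 0.02 and 0.07 in control, with an interval of 90.4 to 102.1% of control. SLC25A31, known from testis, had control arrays at -0.14, 0.20 and 0.33 and knockdown arrays at -0.02, 0.02 and -0.03 (-0.14 ± 0.11, SE, adjusted p = 0.444); without control replicate 1 it was called, at -0.28 (adjusted p = 0.0313).

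None of the carriers that exchange ATP-Mg for phosphate, and so set the adenine nucleotide pool of the matrix, passed. SLC25A25 was at -0.14, -0.06 and -0.03 in knockdown and at 0.10, 0.05 and 0.05 in control arrays, and SLC25A23 at 0.07, 0.12 and 0.12 against -0.02, -0.09 and 0.02. Neither pair of groups overlapped, and neither gene reached the threshold (-0.15 ± 0.04 and adjusted p = 0.0724; 0.13 ± 0.04 and adjusted p = 0.0904; SE). SLC25A23 minus SLC25A25 was 0.18 ± 0.03 in knockdown and -0.10 ± 0.06 in control arrays (SD, n = 3 each; exact permutation p = 0.1). Single probe sets differed in both genes, from -0.26 to -0.06 for SLC25A25, the lowest being called (adjusted p = 0.0468), and from -0.09 to 0.30 for SLC25A23. SLC25A24 and SLC25A41 of the same group were at -0.06 and 0.02.

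Both pyrimidine nucleotide carriers, which supply mitochondrial DNA and RNA synthesis, did not pass. SLC25A36 was at 0.13, 0.01 and 0.05 in knockdown and at -0.10, -0.06 and -0.02 in control arrays, with no overlap (0.12 ± 0.04, SE, adjusted p = 0.125) and all 3 probe sets above 0. SLC25A33 was at -0.0032 ± 0.04 (SE, adjusted p = 0.969), with a 95% interval of 94.2 to 105.7% of control. It rests on 1 probe set, of the _s_at type.

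Of the mitoferrins, which carry iron into mitochondria for heme and iron-sulfur clusters, SLC25A37 rose and SLC25A28 did not pass. SLC25A37, the form of red cell precursors, was at 0.13, 0.03 and 0.08 in knockdown and at -0.11, -0.08 and -0.07 in control arrays. All knockdown arrays lay above all control arrays, and the log2 fold change was 0.17 ± 0.04 (SE, adjusted p = 0.0390). All 5 probe sets were above 0, between 0.12 and 0.22, and 1 was called on its own (adjusted p = 0.0369). Without 1 array the call was kept only without knockdown replicate 2 (adjusted p = 0.0440; otherwise 0.0907 to 0.107), and it was lost when _s_at and _x_at probe sets were dropped (adjusted p = 0.0764). SLC25A28, the widely expressed form, was at 0.02, -0.06 and -0.02 in knockdown and at 0.11, -0.13 and 0.03 in control arrays, with knockdown values inside the control range (-0.03 ± 0.06, SE, adjusted p = 0.840), and it rests on 1 probe set.

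SLC25A3, which brings in phosphate for ATP synthesis and also copper for cytochrome c oxidase, did not pass. Its 6 probe sets averaged -0.0051, -0.02 and 0.00078 in knockdown and -0.0031, 0.0045 and -0.00068 in control arrays. The difference was -0.0098 ± 0.04 (SE, adjusted p = 0.895), with an interval of 93.9 to 105.1% of control. The single probe sets lay between -0.10 and 0.03, none called.

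**Figure D4:**
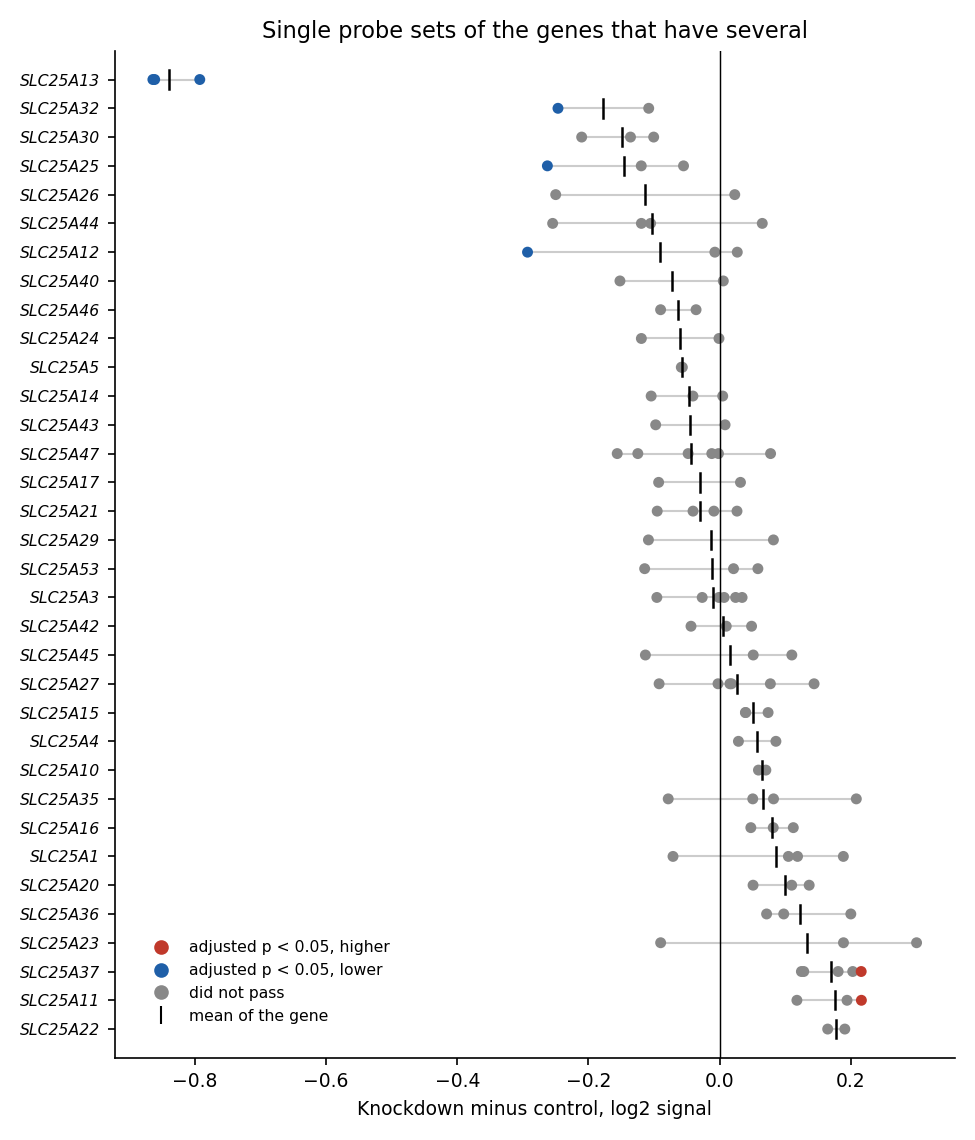
Log2 signal in knockdown minus control arrays of the single probe sets (points) of the 34 SLC25A genes with several, with the mean of the gene as a black bar; blue and red points passed an adjusted p under 0.05 over all probe sets. The 3 probe sets of SLC25A13 lie between -0.86 and -0.79, while 18 of the 34 genes have probe sets on both sides of 0.

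Of the 25 carriers of other substrates 1 was called higher and 1 lower, where 11.0% of all genes were called. SLC25A32, which brings folate into mitochondria and has also been linked to flavin supply, was at -0.07, -0.10 and -0.08 in knockdown and at 0.04, 0.14 and 0.10 in control arrays. The groups did not overlap, and the log2 fold change was -0.18 ± 0.04 (SE, adjusted p = 0.0329), or 88.4% of control (95% interval 82.8 to 94.5%). The fall came mostly from 1 of its 2 probe sets, at -0.25 and called (adjusted p = 0.0260), the other being at -0.11 (adjusted p = 0.303). Without 1 array the call was kept only without control replicate 1 (adjusted p = 0.0392; otherwise 0.0762 to 0.105).

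SLC25A11, which exchanges 2-oxoglutarate for malate, is the partner of the aspartate/glutamate carriers in the malate-aspartate shuttle, and it rose while SLC25A13 fell. Its arrays were at 0.05, 0.08 and 0.13 in knockdown and at -0.04, -0.13 and -0.09 in control, without overlap. The log2 fold change was 0.18 ± 0.04 (SE, adjusted p = 0.0395), or 113.0% of control, with 3 probe sets at 0.12, 0.19 and 0.22. The call was lost without any 1 of the 6 arrays (adjusted p = 0.0560 to 0.123) and when _s_at and _x_at probe sets were dropped (adjusted p = 0.0826).

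The other carboxylate carriers did not pass. SLC25A1, which exports citrate for lipid synthesis, was at 0.08, 0.04 and 0.08 in knockdown and at 0.05, -0.08 and -0.02 in control arrays, where control replicate 1 overlapped the knockdown arrays (0.09 ± 0.04, SE, adjusted p = 0.271). Of the 4 SLC25A1 probe sets, the 3 of the _x_at type were at 0.10 to 0.19 and the other was at -0.07. SLC25A10, the dicarboxylate carrier, was at 0.06 ± 0.10 (SE), with control replicate 2 at -0.33 and every other array between -0.14 and 0.04. SLC25A21, the oxodicarboxylate carrier, was at -0.03. SLC25A20, which brings in acylcarnitines for fatty acid oxidation, had every knockdown array at 0.05 and all control arrays between -0.06 and -0.03, and its difference of 0.10 ± 0.04 (SE) did not pass (adjusted p = 0.120).

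Among cofactor carriers none but SLC25A32 passed. SLC25A26, which brings in S-adenosylmethionine, was at -0.18, -0.01 and 0.03 in knockdown and at -0.01, 0.04 and 0.14 in control arrays (-0.11 ± 0.06, SE, adjusted p = 0.313), from probe sets at -0.25 and 0.02. The coenzyme A carriers SLC25A16 and SLC25A42 and the peroxisomal SLC25A17 were at 0.08, 0.0049 and -0.03. The glutathione carriers SLC25A39 and SLC25A40 were at 0.08 and -0.07, and the NAD carriers SLC25A51 and SLC25A52, close copies of each other that each rest on 1 _x_at probe set, at 0.06 and 0.07 and cannot be told apart with certainty.

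SLC25A30 had the lowest value of the carriers that did not pass. It belongs with SLC25A14 and SLC25A27 to the relatives of the uncoupling proteins, which let protons leak across the membrane. Its arrays were at -0.14, -0.13 and -0.04 in knockdown and at 0.05, 0.08 and 0.01 in control, with no overlap (-0.15 ± 0.04, SE, adjusted p = 0.0670) and all 3 probe sets below 0, between -0.21 and -0.10. SLC25A14 was at -0.05 and SLC25A27 at 0.03. The 8 less characterised carriers, SLC25A34, SLC25A35, SLC25A43, SLC25A45, SLC25A46, SLC25A47, SLC25A48 and SLC25A53, lay between -0.10 and 0.07, and 0 of them passed limma's test or had an unadjusted p under 0.05. SLC25A46, which sits in the outer membrane and takes part in mitochondrial fusion and fission, was at -0.06 ± 0.04 (SE, adjusted p = 0.317) with groups apart, and SLC25A34 was called without knockdown replicate 2, at -0.20 (adjusted p = 0.0348), and that array stood at 0.12 beside -0.19 and -0.21 in the other knockdown arrays.

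Other genes of mitochondrial transport were counted from 7 lists, of whose 98 genes 92 were measured. Of these, 3 rose and 6 fell, 9.78%, again near the background of 11.0%. This split turned over with the choice of probe set. It was 8 higher and 4 lower when the most variable one stood for its gene, where 8.13% of all genes were called. Counting genes with at least 1 called probe set, it was 10 higher and 5 lower. There 7.24% of all probe sets were called, and no share of all genes with at least 1 was computed. None of the 13 genes that import and insert carriers (TOM receptors, small TIM chaperones and the TIM22 complex) was called by limma, with 2 at an unadjusted p under 0.05 (26.6% of all genes), and their log2 fold changes lay between -0.14 and 0.13. Of 3 VDAC channels of the outer membrane 0 passed, and 0 had an unadjusted p under 0.05. The unadjusted count was 6 of 15 for the shuttle enzymes, 5 of 21 for the other inner membrane transporters, 5 of 18 for ATP synthase, 5 of 10 for iron and heme and 4 of 12 for the regulators.

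SFXN1, the mitochondrial serine carrier of the separate sideroflexin family, had the largest change in these lists. It was at -0.31, -0.23 and -0.23 in knockdown and at 0.19, 0.27 and 0.27 in control arrays, without overlap. Its log2 fold change was -0.50 (SE 0.04, adjusted p = 0.000780), or 70.7% of control. MPC1, a subunit of the pyruvate carrier, fell by 0.28 (SE 0.06, adjusted p = 0.0231), a call lost without any control array or without knockdown replicate 2 (adjusted p = 0.0501 to 0.0766), while its partner MPC2 did not pass. The other 19 of the 21 measured genes in the list of other inner membrane transporters did not pass. The uncoupling proteins UCP1 to UCP3 were among them, and the symbol rule did not count them as carriers here.

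In the list of shuttle enzymes, 2 of 15 were called higher and 1 lower, 20%, where 11.0% of all genes were called. CPT1A, which makes the acylcarnitines that SLC25A20 carries, fell by 0.31 (SE 0.04, adjusted p = 0.00469). Its relative CPT1C, the brain form, rose by 0.27 (SE 0.05, adjusted p = 0.0104), and ACLY, which cleaves exported citrate, rose by 0.18 (SE 0.04, adjusted p = 0.0359), a call lost without any 1 array (adjusted p of 0.0613 or more). The aminotransferases and malate dehydrogenases of the malate-aspartate shuttle, GOT1, GOT2, MDH1 and MDH2, did not pass, at 0.08, -0.07, -0.01 and 0.15.

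Among 18 ATP synthase genes 1 fell (5.56%, beside 11.0% of all genes called), ATP5MJ by 0.27 (SE 0.05, limma adjusted p = 0.0106). Its value was -0.88 on its most variable probe set and -0.17, no longer called, when _s_at and _x_at probe sets were dropped (adjusted p = 0.134). Among 10 genes of mitochondrial iron and heme metabolism 1 fell (10%), FTMT, mitochondrial ferritin, by 0.25 (SE 0.06, limma adjusted p = 0.0262). That call was lost without any array but control replicate 3 (adjusted p = 0.0554 to 0.0850). Of 12 regulators of mitochondrial gene expression, 1 rose and 1 fell (16.7%). TFAM, which packages and transcribes mitochondrial DNA, fell by 0.29 (SE 0.04, limma adjusted p = 0.00493). PPARGC1A, a coactivator of mitochondrial biogenesis, rose by 0.27 (SE 0.04, limma adjusted p = 0.00468), or by 0.62 on its most variable probe set. For ATP5MJ and PPARGC1A alike, choosing the most variable probe set favours a large difference, because a difference between the groups widens the spread.

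RefSeq promoter windows were found for 39 of the 46 carriers. CACGTG occurred in 7 of them, 17.9%, beside 8.82% of the 14425 windows of genes on the arrays. The motif of the respiratory regulator NRF1 occurred in 5 (12.8% beside 8.92%), CCGGAAGT of ETS factors in 3 (7.69% beside 6.41%) and GGGCGG in 27 (69.2% beside 59.7%), while TGATGCAAT of ATF4 and C/EBP occurred in 0 (beside 0.187%). Both strands were searched, and the motifs may overlap. The median observed to expected CpG ratio was 0.893 for the carriers and 0.773 for all windows, with 34 of 39 carriers (87.2%) and 67.5% of all windows above 0.6. Of the called carriers with a window, SLC25A13 held an E-box, SLC25A11 an NRF1 motif and SLC25A22 3 GC boxes. A match describes the letters of the window and is not a bound site.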

How the data were processed

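The authors deposited 1 table of log2 values per probe set and array, made with RMA per the submitters' processing notes (version not stated); the log base is taken from that name. In the deposited table each probe set had been centred to a median of 0 over the 6 arrays (largest departure 4.85e-07), a step no source describes, so brightness is unknown and no filter on dim probe sets could be applied. Array medians lay between -0.0024 and 0.0040, and no further normalization was applied. After 102 control probe sets were left out, 49293 probe sets remained, 44988 of them with 1 gene symbol, 1832 with several and 2473 with none in the platform annotation. Gene IDs of all 117 carrier probe sets matched RefSeq (GRCh38.p14), with 0 symbols differing. Probe sets were averaged per gene, and 18132 genes were compared two-sided with limma 3.58.1 (functions lmFit then eBayes, R 4.3.3), without covariates and with Benjamini-Hochberg adjustment over all genes. On simulated data with 200 changed genes, fewer than the 1994 called here, the procedure recovered 0% of those changed by 0.2 on the log2 scale. It recovered 75.5% of those changed by 0.4 and 97.5% of those changed by 0.8. With fewer changed genes the adjustment is stricter, so these shares are not those of the data. In the data some carriers changed by 0.17 to 0.18 were called, though others changed by 0.2 or less could still go uncalled. Standard errors and 95% intervals are limma's, and the number of arrays limits the precision. Carrier pairs were compared by exact permutation tests.

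Every measured gene taken by the SLC25A symbol rule is accounted for. Array values are given for called carriers and for up to 2 others with the largest change per substrate class. Some further carriers were chosen after their values were seen. Members and lists were chosen with earlier results of these data known.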

Additional observations from a re-analysis of the deposited data

How the results depend on the processing

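SLC25A13 was called lower under all 13 alternatives fitted on genes, and PCGF1 likewise (-0.48 to -0.39). The count of called carriers, 5, was also 5 with quantile normalization, array medians set to 0, array weights or robust variance moderation, where 10.6% to 11.8% of all genes were called. It was 3 when the most variable probe set stood for its gene (SLC25A13, SLC25A32 and, in addition, SLC25A12), where 8.13% of all genes were called. It was 3 of 40 when _s_at and _x_at probe sets were dropped, where 8.14% of all genes were called. With at least 1 called probe set it was 6, where SLC25A12 and SLC25A25 came in and SLC25A22 dropped out, and 7.24% of all probe sets were called. The most variable probe set is no independent alternative, because a difference between the groups widens the spread it was picked by. Without 1 array, 1 to 4 carriers were called, 1 of them always SLC25A13; fewer arrays also give fewer calls over all genes, 980 to 1402 in place of 1994. With the replicate number as a block 1 carrier, SLC25A13, and 1036 genes were called. Same-numbered arrays showed no shared deviation (correlations -0.04, -0.05 and 0.01). With so few arrays per group this cannot decide whether they were handled as pairs. The block also uses up residual degrees of freedom. Of the 46 carriers 15 changed sign under at least 1 alternative, none of them called. Among those given in full, SLC25A28 ranged from -0.0915 to 0.0262 without 1 array, being above 0 only without control replicate 1. SLC25A1, also given in full, was at -0.07 when _s_at and _x_at probe sets were dropped. Genes of the other lists with at least 1 called probe set numbered 15, in place of 9 called on the mean of the gene. Without 1 array 6 to 7 were called, where 5.40% to 7.73% of all genes were called. Of the carrier pairs 5 of 10 were apart when _s_at and _x_at probe sets were dropped, in place of 8 of 15, and 8 to 10 of 15 without 1 array. Groups of fewer arrays come apart more easily, so the last counts cannot be set beside the 8 of 15 on 6 arrays. Where a value moved, the cause was not tested beyond the smaller numbers of genes and arrays named here. Centred values hide signal over background, so carriers that U87 cells may not express cannot be set aside.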

Other observations

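The nearest measured neighbours of SLC25A13 in the order of genes on GRCh38.p14 did not follow it. On one side DYNC1I1, a dynein chain, was at -0.0056 (limma adjusted p = 0.962) and PDK4, a kinase that inhibits pyruvate dehydrogenase, at 0.06 (adjusted p = 0.672). On the other side the homeobox genes DLX6 and DLX5 were at 0.37 (adjusted p = 0.109) and 0.33 (adjusted p = 0.0357), opposite in sign to SLC25A13. Of the 20 nearest measured neighbours of the 5 called carriers, 4 each, 7 were called (11.0% of all genes were), 4 with the sign of their carrier and 3 with the opposite one; these neighbours were looked at after the carriers' values were seen, and no test of the count was made.

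Some carriers with 1 probe set owed their spread to a lone array. SLC25A48 was at 0.26 in knockdown replicate 1 and between -0.09 and 0.08 in every other array. SLC25A2 was at 0.30 in the same array and between -0.12 and 0.04 elsewhere.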
